A study of Mus musculus with 12 samples.

Results

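The genes described here are 9 metabolic nuclear receptors of the hepatocyte and 1 antisense RNA: Hnf4a, Ppara, Pparg, Nr1h3, Nr1h4, Nr1i2, Nr1i3, Nr5a2, Rxra and the noncoding Hnf4aos. They were taken by name from the gene tables, 10 of 55401 gene rows, by a rule that uses no measured value, though the list was drawn up with earlier results of these data known. All 10 were above 0 in every library and all 10 passed the filter on low counts. The tissue was whole liver, so the cell that made each transcript was not measured.

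Liver poly(A) RNA was sequenced in 12 libraries, 4 groups of 3, from C57BL/6 mice. Their labels give the sex as male and an age of 6 to 8 weeks. Every mouse carried the genotype LPCAT3flox/flox, with loxP sites at the gene of a lysophosphatidylcholine acyltransferase. The groups FLOX-NC (flox control) and FLOX-MCD (flox MCD) had no cre, while LKO-NC (cre control) and LKO-MCD (cre MCD) were LPCAT3flox/flox-cre. The labels do not name the promoter that drives cre. The MCD mice ate a diet without methionine and choline for 8 weeks, a standard way to bring on steatohepatitis in mice. Control mice are labelled control, and what they ate is called the control diet below. Its make-up, and how long it was fed, are not given in the sources used here. All mice, controls included, fasted for 12 h before the liver was taken. After 8 weeks of diet, the labelled age of 6 to 8 weeks cannot be that of the MCD mice when the liver was taken. Nothing in the labels says whether mice shared a litter or a cage, so the p-values below measure only the spread between these samples.

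Nuclear receptors are transcription factors whose activity is set by small lipophilic ligands. In the liver most of those described here bind DNA as a pair with the retinoid X receptor and switch on genes for fatty acid oxidation (PPARalpha, from Ppara), fat storage (PPARgamma, Pparg), sterol handling (LXRalpha, Nr1h3), bile acid balance (FXR, Nr1h4) or detoxification (PXR and CAR, Nr1i2 and Nr1i3). HNF4alpha, from Hnf4a, holds the hepatocyte programme in place and binds as a pair with itself, and LRH-1, from Nr5a2, binds alone and drives bile acid and sterol genes.

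Each library had 40883986 to 65516723 estimated counts, spread over 17631 to 19988 detected genes. One ribosomal RNA row took 5.6% to 43.04% of them, with flox control 1 at the top, and rows of the mitochondrial genome took 10.65% to 36.14%. Lpcat3, the targeted gene, was at 41.4 to 63.4 CPM (counts scaled to a common library size with TMM, a factor per library that assumes most genes do not change) in the 6 flox libraries and at 16.1 to 23.3 CPM in 5 cre libraries. The library labelled cre MCD 3 stood at 56.1 CPM, within the flox range, so results on cre MCD are also given without it where they differ. Xist was at 116 to 685 CPM in all 12 libraries and 4 Y-linked genes had 0 counts in each, which goes against the sex label.

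Per length, Hnf4a, Nr1i3 and Nr1h4 had the highest means in all 4 groups, in changing order. In flox control, Hnf4a stood at 68 ± 28.1 FPKM (fragments scaled by transcript length and by library size, SD, n = 3), Nr1i3 at 51.8 ± 8.68 and Nr1h4 at 38.9 ± 7.51, with overlapping ranges between neighbours. Nr1h3 (26.1 ± 10.6 FPKM), Rxra (23.1 ± 8.85) and Nr1i2 (23 ± 2.68) followed and overlapped too. Nr5a2 (6.38 ± 1.25 FPKM), Ppara (5.72 ± 1.2) and Hnf4aos (4.48 ± 1.53) lay below all libraries of those 6 genes, and Pparg was lowest at 1.5 ± 0.705 FPKM. In both MCD groups the bottom of this order was different: Hnf4aos was last, at 0.234 ± 0.096 FPKM in flox MCD and 0.604 ± 0.221 in cre MCD. Pparg had come level with Ppara there, at 6.31 ± 0.581 against 6.69 ± 0.357 FPKM in flox MCD and 4.83 ± 0.891 against 4.32 ± 0.446 in cre MCD, and both pairs overlapped.

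**Figure D1:**
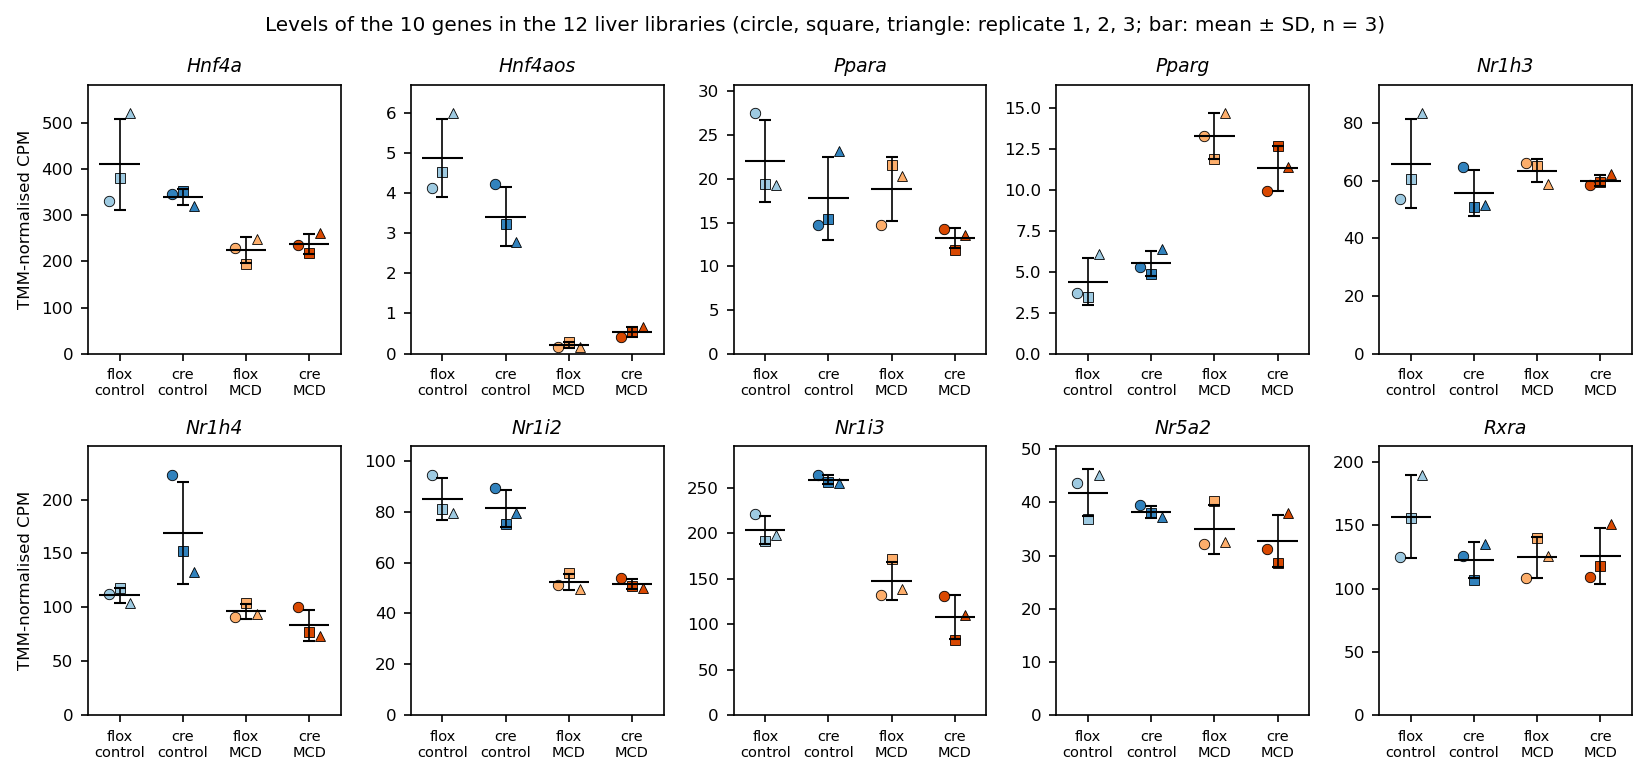
TMM-normalised CPM (vertical axes, each from 0) of the 10 genes in the 12 libraries, by group; symbols are replicates, bars are means ± SD of 3 libraries. On the MCD diet Pparg lies above every control library and Hnf4aos, Hnf4a, Nr1i2 and Nr1i3 lie below every control library.

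On the MCD diet the fat-storage receptor Pparg rose and the antisense RNA Hnf4aos fell in both genotypes, and relative to the median gene several receptors of the hepatocyte programme fell as well. Averaged over genotypes, 1 of the 10 genes rose (Pparg) and 5 fell (Hnf4aos, Nr1i3, Hnf4a, Nr1i2 and Nr1h4), with 14.9% of all 16523 tested genes called in that comparison, 8.03% higher and 6.92% lower (edgeR quasi-likelihood test, Benjamini-Hochberg adjusted p under 0.05 over all genes). In flox mice 4 were called, Pparg higher and Hnf4aos, Hnf4a and Nr1i2 lower, where 5.27% of all genes were called, 2.64% higher and 2.63% lower. In cre mice 5 were called, Pparg higher and Hnf4aos, Nr1i3, Nr1i2 and Nr1h4 lower, where 6.77% of all genes were called, 3.73% higher and 3.04% lower. The median log2 fold change of the 10 genes was -0.47 averaged over genotypes, against 0.00 for all genes. DESeq2 gave the same counts of 4, 5 and 6. Without the libraries cre MCD 3 and flox control 3 together, the counts were again 4, 5 and 6. Nothing in the labels sets flox control 3 apart, and a shift seen without both libraries, here or below, cannot be assigned to either one. With 1 library left out, the flox count was 2 in the absence of any flox MCD library. The cre count was 2 in the absence of cre control 1, cre MCD 2 or cre MCD 3 and 3 in that of cre control 2. It was also lower without cre control 3, flox MCD 1 or flox MCD 3, where only Nr1i2 no longer passed. The averaged count was 6 in all 12 such fits. Groups that did not overlap were seen for 1 gene higher and 4 lower in flox mice (13.8% and 10.3% of all genes), 1 and 6 in cre mice (16.4% and 14.7%) and 1 and 4 with 6 libraries a side (3.39% and 2.96%).

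The scaling bears on these calls. TMM factors were 0.6836 to 0.993 in the control libraries and 1.017 to 1.252 in the MCD libraries. In the deposited FPKM values, which carry no such factor, the median of all genes was 0.29 higher on MCD (log2(FPKM + 1), averaged over genotypes; 0.37 in flox and 0.22 in cre mice). On that unscaled scale limma tested each gene against no change, not against the raised median. It called 2 of the 10 genes averaged over genotypes, Pparg and Hnf4aos, and these 2 passed in all alternatives tried for that comparison. In edgeR the averaged falls of Hnf4a, Nr1i2, Nr1i3 and Nr1h4 were thus measured relative to the median gene. The unscaled FPKM are not absolute levels either. They are scaled by library size, of which the ribosomal RNA and mitochondrial rows took a varying part. On the unscaled FPKM scale the averaged values of these genes were -0.24 (limma, adjusted p = 0.38), -0.23 (0.23), -0.42 (0.072) and -0.16 (0.51). After each library was centred on its median gene, the first 3 passed again (adjusted p = 0.029, 0.0062 and 0.0033) and Nr1h4 stood at -0.46 (adjusted p = 0.052).

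**Figure D2:**
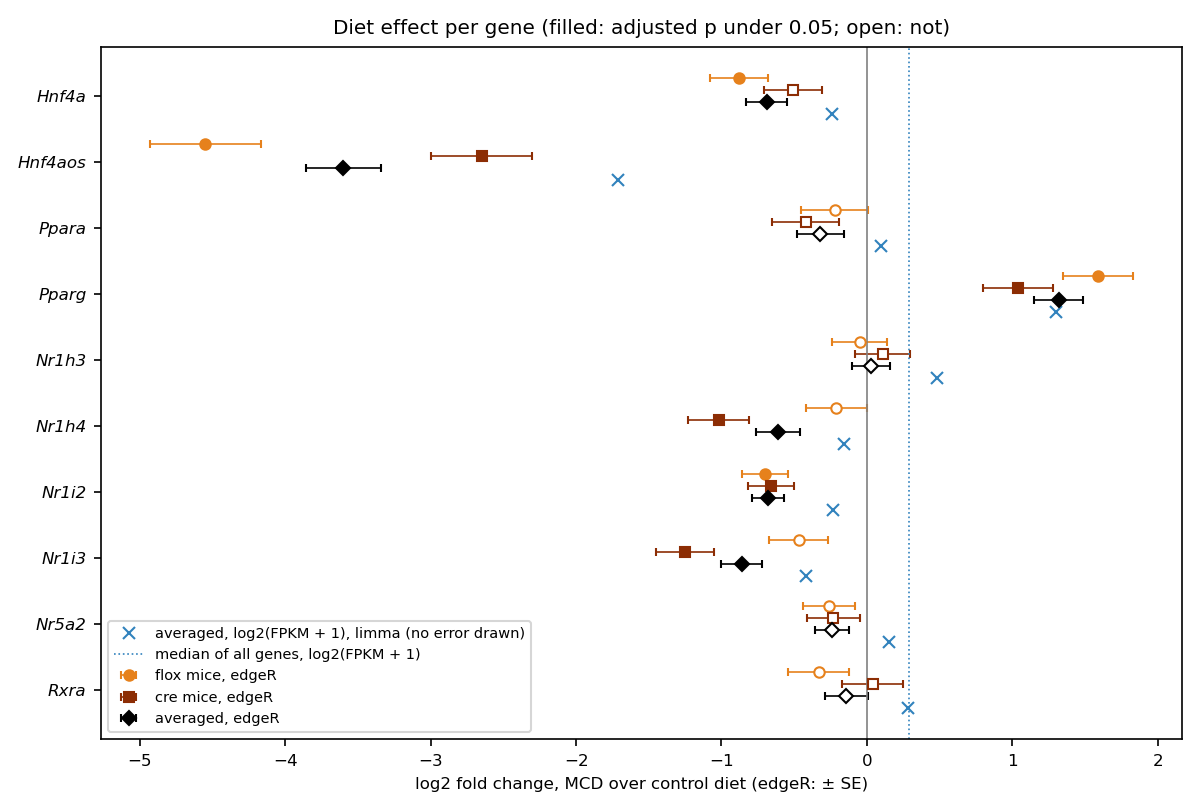
Log2 fold change of the MCD over the control diet (horizontal axis) for each gene: edgeR with its SE in flox mice, cre mice and averaged, and the unscaled FPKM fit; filled symbols passed an adjusted p of 0.05 in edgeR. Pparg and Hnf4aos lie far from 0 on both scales, while the crosses of the other genes lie to the right of their diamonds; the dotted line at 0.29 is the median of all genes on the unscaled scale.

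Markers of other liver cells moved with the diet, and in whole tissue fewer cells of a type and less RNA per cell cannot be told apart. Of 21 macrophage markers 12 rose and 2 fell (8 to 12 rose when 1 library was left out; averaged over genotypes, edgeR adjusted p under 0.05), and their summed level was 236 to 345 CPM in the control libraries, 390 to 775 in flox MCD and 336 to 491 in cre MCD. Of 14 stellate cell markers 10 rose (5 to 10), with sums of 266 to 374 CPM on the control diet, 502 to 629 in flox MCD and 390 to 493 in cre MCD. Of 8 cholangiocyte markers 2 rose (1 to 3) and of 10 endothelium markers 1 rose (0 to 1), while none of 10 lymphocyte markers passed (0 to 1 fell). Of 20 hepatocyte markers, 19 were tested, none rose and 4 fell (3 to 5), and none was at 0. Without cre MCD 3 and flox control 3 the markers that rose were 8 for macrophages, 8 for stellate cells, 1 for cholangiocytes and 0 for endothelium. The hepatocyte sum was 71173 to 133111 CPM in flox control, 80311 to 106439 in cre control, 57610 to 82165 in flox MCD and 102702 to 122502 in cre MCD. The part of these cells in the results on the 10 genes was not tested.

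Hnf4a (ENSMUSG00000017950, GRCm38 chr2:163506808-163572910, plus strand) encodes HNF4alpha, the receptor on which much of hepatocyte gene expression rests. Its level was 331, 381 and 522 CPM in flox control and 347, 354 and 320 in cre control. It was 230, 194 and 249 CPM in flox MCD and 236, 218 and 262 in cre MCD. In CPM every MCD library lay below every control library, and flox control 3 stood highest. In unscaled FPKM the diets overlapped. The log2 fold change was -0.69 (SE 0.14, edgeR adjusted p = 0.006) averaged over genotypes and -0.88 (SE 0.20, adjusted p = 0.024) in flox mice. In cre mice it was -0.51 (SE 0.20) and did not pass (adjusted p = 0.14). When any flox MCD library was left out, the flox value no longer passed (adjusted p 0.068 to 0.11), while the averaged one held without any single library (adjusted p up to 0.024).

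Hnf4aos (ENSMUSG00000046840, GRCm38 chr2:163493807-163541720, minus strand) is an antisense RNA whose gene starts between the upstream and the main Hnf4a promoter and runs back past the upstream one. Its start lies 5468 bases before the main Hnf4a start, and the gene spans overlap over 34913 bases with 0 shared exonic bases. Whether the libraries kept the strand is not given in the sources used here. Hnf4aos was at 4.12, 4.51 and 5.98 CPM in flox control and at 4.22, 3.22 and 2.78 in cre control. It was at 0.15, 0.295 and 0.168 CPM in flox MCD and at 0.418, 0.55 and 0.648 in cre MCD. The diets were far apart, and on MCD all 3 cre libraries lay above all 3 flox libraries. These levels rested on 108 to 286 estimated counts per control library, 9 to 21 in flox MCD and 18 to 41 in cre MCD. The log2 fold change on MCD was -4.55 (SE 0.38, edgeR adjusted p = 2.4e-05) in flox mice, -2.65 (SE 0.35, adjusted p = 0.00091) in cre mice and -3.60 (SE 0.26, adjusted p = 1.9e-06) averaged. With cre MCD 3 left out, the value in cre mice was -2.80 (adjusted p = 0.0033).

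A ratio within a library does not depend on the scaling factor. The FPKM of Hnf4aos over that of Hnf4a was 0.0759, 0.0634 and 0.0632 in flox control and 0.0637, 0.0481 and 0.047 in cre control. On MCD it was 0.00324, 0.00771 and 0.00324 in flox mice and 0.00878, 0.0129 and 0.0143 in cre mice. The antisense RNA thus fell relative to its partner in every MCD library, from 0.0602 ± 0.011 to 0.00836 ± 0.00467 (SD, n = 6 each). The difference of the mean log2 ratio was -3.06, and 2 of 924 splits of 6 against 6 were as far apart (2-sided exact permutation test, p = 0.00216, the smallest it can give). Each side of 6 held both genotypes, whose ratios did not overlap on MCD, and the splits ignored genotype. Within one genotype 3 against 3 libraries allow no p below 0.1; the difference was -3.96 in flox and -2.16 in cre mice.

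The 2 start sites are shown because a single stretch of chromosome 2 held the strongest fall among the 10 genes and a milder one. The windows run from 250 bases before to 50 after a start (RefSeq, GRCm38.p6), 5′ to 3′ on the strand of the gene. Capitals mark the letters CAAAGTCC (core of the HNF4 binding motif) in the Hnf4aos window, chr2:163541672-163541971, minus strand. The main Hnf4a window, chr2:163546905-163547204, plus strand, held neither motif searched and has no capitals.
Hnf4aos: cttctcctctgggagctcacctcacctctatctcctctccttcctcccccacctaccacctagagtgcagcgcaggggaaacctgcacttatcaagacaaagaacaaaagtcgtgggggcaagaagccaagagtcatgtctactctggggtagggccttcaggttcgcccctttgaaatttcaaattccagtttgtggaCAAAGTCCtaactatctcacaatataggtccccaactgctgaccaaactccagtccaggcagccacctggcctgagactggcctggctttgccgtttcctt
Hnf4a: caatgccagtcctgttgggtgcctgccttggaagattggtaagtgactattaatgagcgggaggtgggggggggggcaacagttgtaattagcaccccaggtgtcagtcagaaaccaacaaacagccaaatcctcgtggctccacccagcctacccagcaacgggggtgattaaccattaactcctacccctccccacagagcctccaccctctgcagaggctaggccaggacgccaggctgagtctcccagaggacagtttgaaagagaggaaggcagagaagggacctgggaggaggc
All 10 genes had a window, 16 in total, and these were searched on both strands for CAAAGTCC and the nuclear receptor half-site AGGTCA, motifs chosen after the sequences were seen. CAAAGTCC occurred in 1 of the 16 windows, that of Hnf4aos, 51 bases before the start, and in 1.42% of all 32851 RefSeq promoter windows. AGGTCA occurred in 5 windows, of Pparg, Nr1h4, Nr5a2 and Rxra, and in 16.3% of all. The matches are descriptions of the letters only.

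By transcript, Hnf4a reads were assigned to the forms from the main start, the form of the adult liver. ENSMUST00000018094 (start 163547188) held 40.5 to 81.7 FPKM in every library but cre control 2, where it stood at 1.61 and ENSMUST00000109411 (start 163547187) at 52.2. These 2 forms are 4356 and 4362 bases long and start 1 base apart, so their split is uncertain, and neither passed in any diet comparison. The upstream form ENSMUST00000143911 (start 163506808), from the promoter known from fetal liver and pancreas, was listed at 0 in all libraries but cre MCD 2, where it stood at 1.1e-05 FPKM. For Hnf4aos the 4-exon ENSMUST00000141329 held 57.5% to 100% of the gene's FPKM. It was at 1.8 to 4.91 FPKM on the control diet and at 0.177 to 0.552 on MCD. Its fall passed in the transcript fit in flox mice (log2 fold change -4.23, edgeR adjusted p = 0.017) and averaged (-3.48, adjusted p = 0.0022), and not in cre mice (-2.74, adjusted p = 0.065). The flox value failed to pass when flox control 2 or any of the flox MCD libraries was left out (adjusted p up to 0.13).

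**Figure D3:**
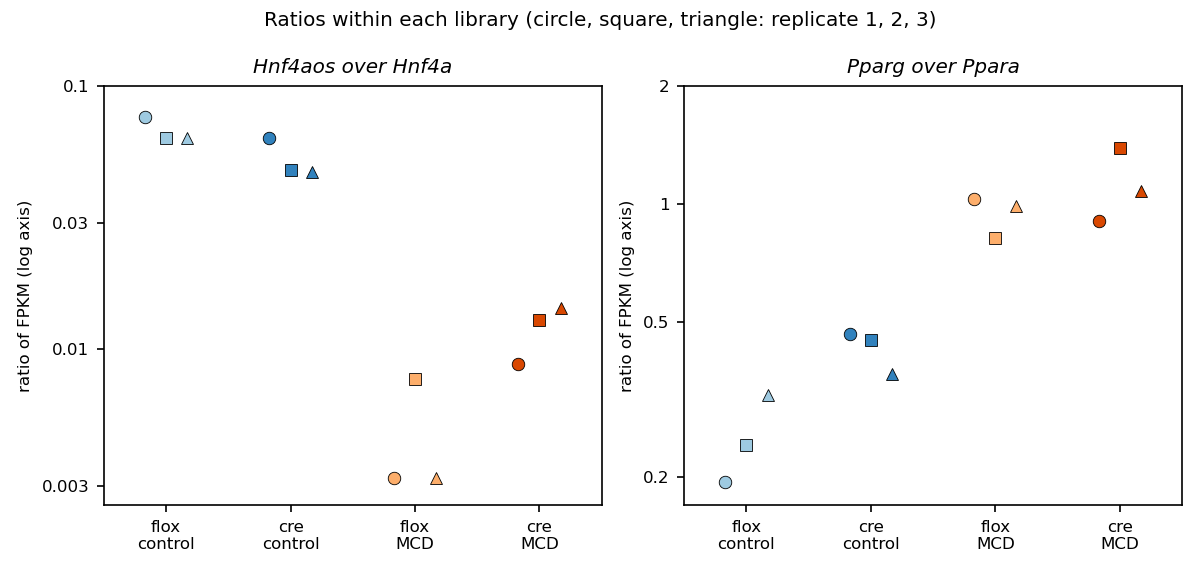
FPKM of Hnf4aos over Hnf4a (left) and of Pparg over Ppara (right) in each library, on log axes, by group. The 6 MCD libraries lie at 0.00324 to 0.0143 on the left, below all control libraries, and at 0.819 to 1.39 on the right, above all control libraries.

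Pparg (ENSMUSG00000000440, chr6:115360951-115490399, plus strand) encodes PPARgamma, the receptor that drives fat storage in adipocytes and is scarce in normal liver. It was at 3.68, 3.48 and 6.06 CPM in flox control and at 5.27, 4.87 and 6.39 in cre control. It was at 13.3, 11.9 and 14.7 CPM in flox MCD and at 9.93, 12.7 and 11.4 in cre MCD. Every MCD library lay above every control library. The log2 fold change was 1.59 (SE 0.24, edgeR adjusted p = 0.0017) in flox mice, 1.04 (SE 0.24, adjusted p = 0.02) in cre mice and 1.32 (SE 0.17, adjusted p = 0.0002) averaged. The cre value no longer passed when 1 of cre control 1, cre control 2, cre MCD 2 or cre MCD 3 was left out (adjusted p 0.054 to 0.095, the lowest for cre MCD 3). Macrophages and adipocytes also use this receptor. Beside the macrophage sums above, the summed adipocyte markers were 3.94 to 6.83 CPM on the control diet, 35.4 to 75.4 in flox MCD and 17.3 to 23 in cre MCD. Of 8 such markers 3 were tested and 2 rose, Cidec and Fabp4 (the latter named after its value was seen). Both are also on the list of PPARgamma targets. The other tested marker, Cfd, did not pass (averaged 1.28, SE 1.37, edgeR adjusted p = 0.57) and was also named after its value was seen. Among the untested markers Lep and Retn, hormones of fat cells, were at 0 in all 12 libraries, and the rest were not. Which cells held the Pparg RNA was not tested.

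Ppara (ENSMUSG00000022383, chr15:85734983-85802819, plus strand) encodes PPARalpha, the receptor of fasting that turns on fatty acid oxidation. It was at 27.5, 19.4 and 19.3 CPM in flox control, 14.7, 15.4 and 23.2 in cre control, 14.7, 21.6 and 20.3 in flox MCD and 14.2, 11.9 and 13.6 in cre MCD. The flox groups overlapped, and the cre MCD libraries lay just below the cre control ones. It did not pass in any comparison (diet averaged -0.32, SE 0.16, edgeR adjusted p = 0.2), and its direction on the diet was positive, 0.10, on the unscaled FPKM scale. The ratio of Pparg to Ppara FPKM was 0.195, 0.242 and 0.324 in flox control, 0.466, 0.448 and 0.368 in cre control, 1.03, 0.819 and 0.987 in flox MCD and 0.906, 1.39 and 1.08 in cre MCD. It went from 0.341 ± 0.109 to 1.04 ± 0.198 (SD, n = 6 each), a difference of 1.65 in mean log2 ratio (2-sided exact permutation test, 2 of 924 splits, p = 0.00216, the smallest it can give). Here too the splits ignored genotype, and the ratios of the genotypes did not overlap on the control diet.

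Pparg has an upstream start, used in many tissues, and a downstream start from which the adipocyte form PPARgamma2 is made. The windows at both are shown because most of the gene's FPKM was assigned to the upstream transcript, a split that is an estimate. Another Pparg window, chr6:115362099-115362398, plus strand, also held AGGTCA and is not shown. Capitals mark AGGTCA in the upstream window, chr6:115360894-115361193, plus strand. The downstream window, chr6:115421816-115422115, plus strand, held neither motif.
Pparg upstream start: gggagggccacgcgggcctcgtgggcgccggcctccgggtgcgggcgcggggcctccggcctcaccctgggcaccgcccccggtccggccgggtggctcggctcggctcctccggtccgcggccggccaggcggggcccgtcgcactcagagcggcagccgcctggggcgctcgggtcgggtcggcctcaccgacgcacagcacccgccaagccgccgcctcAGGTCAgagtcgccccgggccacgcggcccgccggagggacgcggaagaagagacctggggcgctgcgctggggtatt
Pparg downstream start: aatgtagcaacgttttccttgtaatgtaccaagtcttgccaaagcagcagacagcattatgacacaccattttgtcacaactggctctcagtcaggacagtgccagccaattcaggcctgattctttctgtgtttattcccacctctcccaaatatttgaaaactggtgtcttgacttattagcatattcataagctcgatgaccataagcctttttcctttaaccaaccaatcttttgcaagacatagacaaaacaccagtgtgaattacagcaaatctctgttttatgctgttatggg
The transcript from the upstream start, ENSMUST00000171644, was at 0.652, 1.22 and 2.3 FPKM in flox control, 1.84, 1.51 and 2.13 in cre control, 6.47, 5.61 and 6.63 in flox MCD and 3.77, 5.45 and 5.18 in cre MCD. It held 66.5% to 100% of the gene's FPKM, on average 93.8% on the control diet and 99% on MCD. The transcript from the downstream start, ENSMUST00000000450, was at 0.329 FPKM in flox control 1, at 0.0482 in flox MCD 3, at 0.0221 in cre MCD 1 and listed at 0 elsewhere. The upstream transcript rose averaged over genotypes (log2 fold change 1.46, SE 0.26, edgeR adjusted p = 0.028) and still passed in 3 of the 12 fits with 1 library left out, those without flox control 1, flox control 3 or cre MCD 1 (adjusted p up to 0.099 in the others).

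Nr1i3 and Nr1i2 encode CAR and PXR, the receptors that sense drugs and bile acids and raise detoxifying enzymes. Nr1i3 (ENSMUSG00000005677, chr1:171213970-171220701, plus strand) was at 221, 191 and 198 CPM in flox control and at 264, 256 and 255 in cre control. It was at 132, 171 and 138 CPM in flox MCD and at 131, 82.7 and 110 in cre MCD. In CPM the diets did not overlap, though in unscaled FPKM they did, and the genotypes stood in opposite order on the 2 diets. The log2 fold change was -1.25 (SE 0.20, edgeR adjusted p = 0.0028) in cre mice, with every fit that left out 1 library past the threshold, and -0.86 (SE 0.14, adjusted p = 0.0012) averaged. In flox mice it was -0.47 (SE 0.20, adjusted p = 0.21). The fall in cre mice also passed on the unscaled FPKM scale (-0.91, limma adjusted p = 0.038), whereas in flox mice the unscaled value was 0.07.

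Nr1i2 (ENSMUSG00000022809, chr16:38248323-38294824, minus strand) was at 94.6, 81.2 and 79.4 CPM in flox control and at 89.3, 75.3 and 79.5 in cre control. It was at 51.2, 55.8 and 49.7 CPM in flox MCD and at 54, 50.8 and 50 in cre MCD. In CPM the spread within each diet was small beside the gap between diets. In unscaled FPKM the diets overlapped, at 19.5 to 26.1 on the control diet and 17.3 to 21.9 on MCD. After centring on the median gene the value was -0.52 in flox mice (limma adjusted p = 0.066) and -0.53 in cre mice (0.051). The log2 fold change was -0.70 (SE 0.16, edgeR adjusted p = 0.02) in flox mice, -0.66 (SE 0.16, adjusted p = 0.029) in cre mice and -0.68 (SE 0.11, adjusted p = 0.0014) averaged. The flox value did not pass with any one flox MCD library left out (adjusted p up to 0.12). The cre value did not pass with any one cre control library, cre MCD 2 or 3, or flox MCD 1 or 3 left out (adjusted p up to 0.12; -0.63 and 0.091 in the absence of cre MCD 3).

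Nr1h4 (ENSMUSG00000047638, chr10:89454234-89533585, minus strand) encodes FXR, the bile acid receptor that limits bile acid synthesis. It was at 112, 118 and 104 CPM in flox control and at 223, 152 and 133 in cre control. It was at 90.6, 104 and 93.8 CPM in flox MCD and at 100, 77.1 and 73.4 in cre MCD. The cre control libraries, with cre control 1 the highest, lay above all others, and the flox groups touched at 104 CPM. The log2 fold change was -1.02 (SE 0.21, edgeR adjusted p = 0.014) in cre mice, -0.21 (SE 0.21, adjusted p = 0.69) in flox mice and -0.61 (SE 0.15, adjusted p = 0.015) averaged. The cre value no longer passed when cre control 1 (-0.77, adjusted p = 0.059), cre MCD 2 (-0.97, adjusted p = 0.079) or cre MCD 3 (-0.93, adjusted p = 0.056) was left out.

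Nr1h3, Nr5a2 and Rxra did not pass in any of the 6 comparisons. Nr1h3 (ENSMUSG00000002108, chr2:91184061-91202834, minus strand), which encodes the oxysterol receptor LXRalpha, ranged from 50.7 to 83.4 CPM over all 12 libraries with a diet effect of 0.03 (SE 0.13, edgeR adjusted p = 0.92) averaged. It was higher on MCD on the unscaled FPKM scale, by 0.48 (limma adjusted p = 0.072). Nr5a2 (ENSMUSG00000026398, chr1:136842571-136960448, minus strand) ranged from 28.7 to 45.2 CPM, with a diet effect of -0.24 (SE 0.12, adjusted p = 0.2) that was 0.15 on the unscaled scale. Rxra (ENSMUSG00000015846, chr2:27676440-27762957, plus strand), the shared partner, ranged from 107 to 190 CPM, with a diet effect of -0.14 (SE 0.15, adjusted p = 0.55) that was 0.28 on the unscaled scale.

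Of the 55 transcripts listed for the 10 genes, 29 were tested. Averaged over genotypes 4 passed (1.39% of 33093 transcripts were called), and 1 each passed in flox mice (0.202%) and in cre mice (0.193%). The 4 were the Pparg and Hnf4aos transcripts given above, the only Nr1i2 transcript, ENSMUST00000023504, and the 6-exon Nr1i3 transcript ENSMUST00000152865. The Nr1i2 transcript stood at -0.59 (edgeR adjusted p = 0.022). It passed in 2 of the 12 fits with 1 library left out, those without flox control 1 or 3. The 6-exon Nr1i3 transcript is annotated as a retained intron, not as protein coding. It was at 7.95, 10.5 and 9.48 FPKM in flox control, 13.3, 12.4 and 13.7 in cre control, 7.07, 9.17 and 6.11 in flox MCD and 6.09, 5.89 and 4.68 in cre MCD. Its log2 fold change was -1.13 (SE 0.14, adjusted p = 0.0055) averaged and -1.49 (SE 0.20, adjusted p = 0.027) in cre mice, the latter passing in 3 of the 12 fits with 1 library left out, those without flox control 1, flox control 3 or flox MCD 2. Its share of Nr1i3 FPKM was on average 18.9% on the control diet and 14.9% on MCD, while the longer 7-exon ENSMUST00000155126 held 66.9% and 70.1%. That 7-exon transcript, annotated as protein coding, did not pass in any diet comparison (averaged -0.69, SE 0.15, edgeR adjusted p = 0.057). For Nr1h3 and Nr1h4 the assignment between transcripts moved from library to library: the main Nr1h3 transcript ENSMUST00000111354 held 0% to 89% of the gene. Ppara reads lay mostly on ENSMUST00000109422 (50.9% to 90.8%), Nr5a2 on ENSMUST00000027649 (89.1% to 99.4%) and Rxra on ENSMUST00000077257 (99.1% to 100%), and none of these passed.

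**Figure D4:**
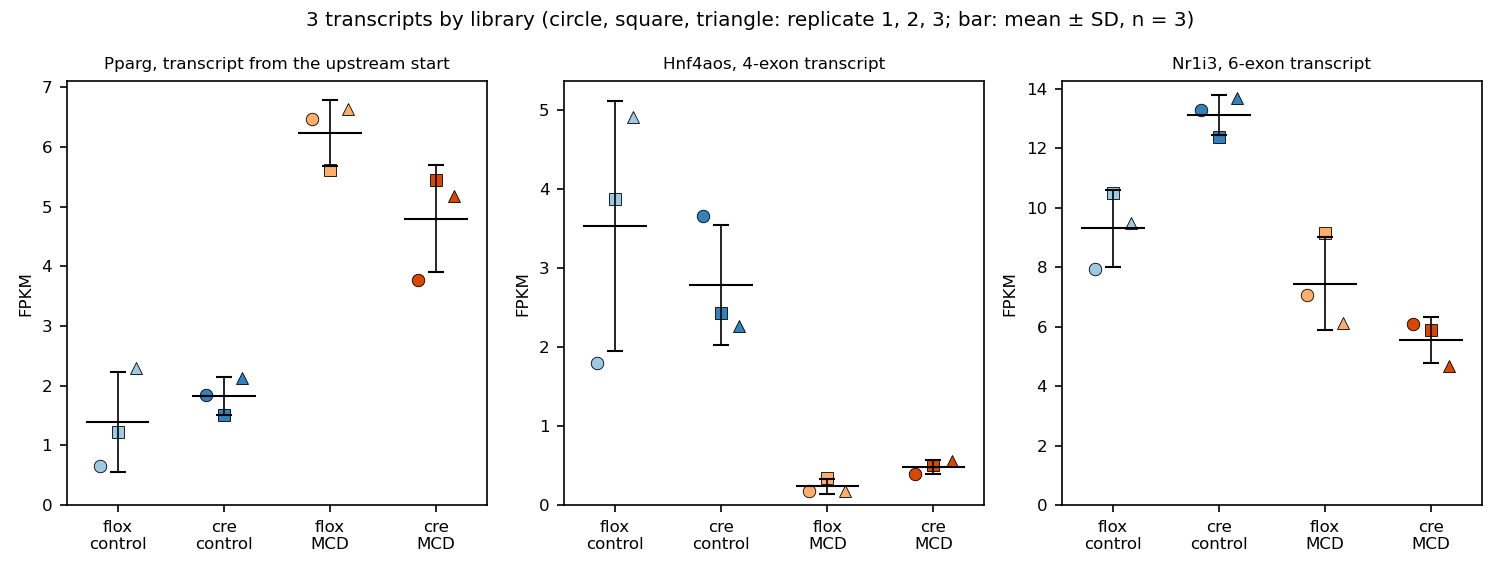
FPKM (from 0) in each library of the Pparg transcript from the upstream start, the 4-exon Hnf4aos transcript and the 6-exon Nr1i3 transcript, with mean ± SD of 3. The Nr1i3 transcript is annotated as a retained intron. The Pparg transcript is at 0.652 to 2.3 FPKM on the control diet and at 3.77 to 6.63 on MCD, and the Hnf4aos transcript is at 1.8 to 4.91 FPKM on the control diet and at 0.177 to 0.552 on MCD.

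Between genotypes, none of the 10 genes passed. For cre against flox on MCD edgeR and DESeq2 both called 0, with 3 at an unadjusted p under 0.05 (Hnf4aos, Nr1i3 and Ppara), where 0.0121% of all genes were called and 8.33% were under that p. On the control diet both called 0, with 1 at an unadjusted p under 0.05 (Nr1h4), where 0.0424% of all genes were called and 7.2% were under that p. For the difference of the diet effects both called 0, with 3 at an unadjusted p under 0.05 (Hnf4aos, Nr1h4 and Nr1i3), where 0.00605% of all genes were called and 8.98% were under that p. Hnf4aos was higher in cre than in flox mice on MCD by 1.39 (SE 0.37, edgeR adjusted p = 0.26), with groups that did not overlap. On MCD 1 of the 10 genes lay apart higher in cre mice and 2 lower (8.13% and 9.42% of all genes), and on the control diet 2 higher and 0 lower (5.76% and 5.01%). The diet effects on Hnf4aos differed by 1.90 (SE 0.49, adjusted p = 0.36; 0.05 to 0.72 over the alternatives). The diet effects on Nr1i3 and Nr1h4 differed by -0.79 (SE 0.28, adjusted p = 0.49) and -0.81 (SE 0.30, adjusted p = 0.51), and that on Nr1i2 by 0.05 (SE 0.22, adjusted p = 0.97). With cre MCD 3 left out, Hnf4aos differed by 1.23 on MCD (adjusted p = 0.35) and again none passed.

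Over the 12 libraries the levels of several genes went together, which is given as a description because all libraries share the diet contrast. On log2(CPM + 1), Pearson's r was 0.92 between Hnf4a and Hnf4aos, 0.94 between Nr1i2 and Hnf4aos, 0.86 between Nr1i2 and Nr1i3 and 0.86 between Nr1h4 and Nr1i3. The r of Pparg was -0.94 with Nr1i2 and -0.93 with Hnf4aos. After the group means were taken away, r was 0.54 for Hnf4a with Hnf4aos, 0.00 for Nr1i2 with Hnf4aos, 0.53 for Nr1i2 with Nr1i3, 0.43 for Nr1h4 with Nr1i3 and -0.46 for Pparg with Nr1i2, and it changed sign, to 0.36, for Pparg with Hnf4aos. The r that follow keep the group means, so they include the diet contrast. Of 12000 genes with a mean of at least 1 CPM, those most like Pparg were Nudt18 (r = 0.983), Apoa4 (0.974) and Gm10680 (0.973). Those most like Hnf4aos were Tmem256 (0.976), Cnmd (0.975) and Lipc (0.967), and most like Hnf4a were Slc27a5 (0.974), Fah (0.965) and Gls2 (0.963). For Nr1i2 they were Lrit2 (0.989), Hamp2 (0.975) and Scnn1a (0.969), for Nr1i3 Abcc6 (0.982), Tshz1 (0.972) and Zfp944 (0.961), and for Nr1h4 Dgka (0.961), Ranbp3 (0.958) and Naa80 (0.954). The best matches of the genes that did not pass were weaker for Ppara (Pfkfb3, 0.87), Rxra (Pxmp2, 0.897) and Nr1h3 (Prr13, 0.903), and Nr5a2 was closest to Fgf1 (0.933).

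Genes that each receptor is known to regulate were then counted in the diet effect averaged over genotypes, where 8.03% of all genes were higher and 6.92% lower. Some genes are on more than 1 list, and the counts in brackets are the ranges over the 12 fits that each left out 1 library. Counts without cre MCD 3 and flox control 3 are added where they differ from the full count by over 1.5 times. Of 24 PPARalpha targets 9 rose (7 to 12) and 1 fell (1 to 1; median log2 fold change 0.32, all genes 0.00). The omega-hydroxylase gene Cyp4a31 went from 6.76 to 11.4 CPM on the control diet to 70.7 to 112 on MCD (log2 fold change 3.38, SE 0.14, edgeR adjusted p = 3.1e-08). Fgf21, a fasting hormone, rose by 2.34 (SE 0.35, adjusted p = 0.00076) and Pdk4, which spares glucose, by 1.67 (SE 0.26, adjusted p = 0.00091). Cyp4a10, the gene of the list that fell (-1.01, SE 0.18, adjusted p = 0.002), is named after its values were seen; it is a close relative of Cyp4a31 and shares sequence with it, so the split of reads between them is uncertain.

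Of 11 PPARgamma targets 8 were tested, 5 rose (5 to 5) and none fell (median 1.28). Cidec, which enlarges lipid droplets, was at 0.321 to 0.982 CPM on the control diet and at 9.77 to 65.2 on MCD (5.30, SE 0.35, edgeR adjusted p = 1e-06). Lpl, the lipoprotein lipase, rose by 2.12 (SE 0.24, adjusted p = 8.2e-05) and Cd36, a fatty acid transporter that PXR also induces, by 1.43 (SE 0.17, adjusted p = 0.00011). Macrophages also express Lpl and Cd36.

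Of 13 LXR targets 1 rose (0 to 3; 2 without both libraries) and 4 fell (3 to 4; median -0.23). The 4 that fell included the desaturase gene Scd1, which went from 1140 to 2710 CPM on the control diet to 25.3 to 391 on MCD (-4.19, SE 0.65, edgeR adjusted p = 0.00093). Pltp, the phospholipid transfer protein, fell by 2.48 (SE 0.27, adjusted p = 6e-05) and Srebf1, the regulator of lipogenesis, by 1.17 (SE 0.23, adjusted p = 0.0039).

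Of 9 genes that FXR induces, 2 rose (2 to 2) and 3 fell (1 to 3; median -0.27). Slc51b, a bile acid exporter subunit, was at 0 to 0.272 CPM on the control diet and at 0.76 to 11.2 on MCD (5.49, SE 0.73, edgeR adjusted p = 0.0003). Apoc2, an activator of lipoprotein lipase, rose by 2.47 (SE 0.51, adjusted p = 0.006), while Slc27a5, a bile acid ligase, fell by 1.16 (SE 0.18, adjusted p = 0.001). None of 3 genes that FXR represses passed (median 0.58), but 0 to 2 rose and 0 to 1 fell with 1 library left out, and without both libraries 2 rose and 1 fell. Cyp7a1, the rate-limiting enzyme of bile acid synthesis, was at 8.82 to 38.1 CPM and 21.3 to 78.3 CPM on the 2 diets (1.15, SE 0.37, adjusted p = 0.052), and Slc10a1, the bile acid importer, stood at -0.66 (SE 0.25, adjusted p = 0.092).

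Of 13 PXR targets 3 rose (3 to 3) and 4 fell (1 to 4; median -0.26). Abcb1a, a drug efflux pump, rose from 1.55 to 2.41 CPM to 4.76 to 6.69 CPM (1.46, SE 0.18, edgeR adjusted p = 0.00016) and Cyp2c55 by 1.54 (SE 0.31, adjusted p = 0.0046). Ces2a, a carboxylesterase, fell from 186 to 251 CPM to 37.4 to 79.8 CPM (-1.91, SE 0.13, adjusted p = 1.4e-06). Of 12 CAR targets 4 rose (3 to 4) and 3 fell (2 to 4; median -0.15). Gadd45b, a stress gene, rose by 1.37 (SE 0.16, adjusted p = 9.3e-05) and Abcc4, an export pump, by 1.56 (SE 0.20, adjusted p = 0.00019), while Cyp2b13 fell by 1.94 (SE 0.26, adjusted p = 0.00035). Cyp2b and Cyp2c genes have near-identical copies, so their values are uncertain.

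Of 10 LRH-1 targets none rose (0 to 3) and 2 fell (1 to 3; median -0.35), whereas without both libraries 3 rose and 1 fell. Nr0b2, which encodes the repressor SHP, fell by 0.79 (SE 0.21, edgeR adjusted p = 0.024, passing in 8 of the 12 fits with 1 library left out; -0.30 on the unscaled FPKM scale). Of 17 HNF4alpha targets none rose (0 to 2) and 3 fell (2 to 4; median -0.23), whereas without both libraries 2 rose and 5 fell. Otc, a urea cycle enzyme, was at 283 to 494 CPM on the control diet and 119 to 203 on MCD (-1.26, SE 0.17, adjusted p = 0.00032). Apoc3 fell by 0.75 (SE 0.15, adjusted p = 0.0059) and Apoa2 by 0.57 (SE 0.17, adjusted p = 0.04, passing in 3 of these 12 fits). On the unscaled FPKM scale Otc stood at -0.80, Apoc3 at -0.31 and Apoa2 at -0.12.

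**Figure D5:**
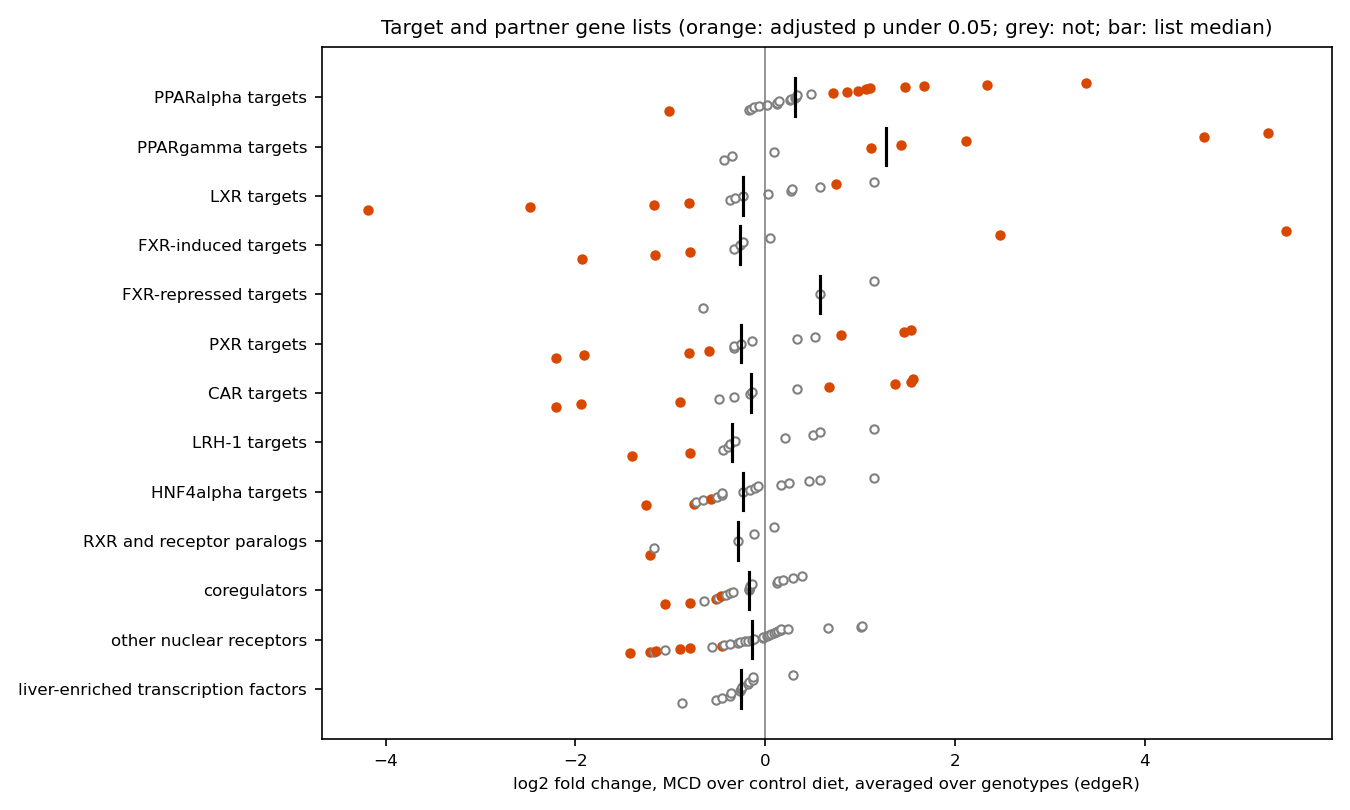
Log2 fold change on the MCD diet averaged over genotypes (horizontal axis) of each tested gene of 13 lists; orange points passed an adjusted p of 0.05 in edgeR, grey ones did not, and bars are list medians. PPARgamma targets have the highest median, 1.28, and in this averaged effect the lists of other receptors, coregulators and liver-enriched factors hold no gene that passed on the higher side.

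Among the other partners, 1 of 5 tested RXR and receptor paralogs fell (0 to 2) and none rose (median -0.29). Nr1h5, an FXR relative, was at 1.59 to 4.58 CPM and 0.426 to 2 CPM on the 2 diets (-1.21, SE 0.31, edgeR adjusted p = 0.019; passing in 11 of the 12 fits with 1 library left out; -0.26 on the unscaled scale). The unscaled value, on log2(FPKM + 1), understates the fold change of low genes such as Nr1h5. Of 19 coregulators 4 fell (0 to 6) and none rose (median -0.17). Ncoa2, a coactivator, fell by 0.47 (SE 0.13, adjusted p = 0.024) and Sirt1, a deacetylase, by 0.52 (SE 0.14, adjusted p = 0.028), but they passed in 8 and 4 of these 12 fits and stood at -0.04 and 0.01 on the unscaled FPKM scale. Of 40 other nuclear receptors 31 were tested, 6 fell (3 to 8; 3 without both libraries) and none rose (0 to 1; median -0.14). Esr1, an estrogen receptor, fell by 0.90 (SE 0.17, adjusted p = 0.0027; -0.30 on the unscaled scale). Nr3c1, the glucocorticoid receptor gene, fell by 0.45 (adjusted p = 0.034, passing in 3 of these 12 fits) but stood at 0.03 on the unscaled scale. Nr4a1, an immediate early gene, rose in flox mice, from 2.03 ± 0.519 to 15.3 ± 5.54 CPM (SD, n = 3; 2.91, SE 0.51, edgeR adjusted p = 0.0045, passing in all 12 such fits). In cre mice it stood at 1.9 ± 0.889 and 1.04 ± 0.72 CPM (-0.87, SE 0.50, edgeR adjusted p = 0.31). The difference between these 2 effects was -3.78 (SE 0.71, edgeR adjusted p = 0.21). Nr3c1 and Nr4a1 were named after their values were seen. None of 13 liver-enriched transcription factors passed (0 to 1 fell; 1 without both libraries; median -0.25), with Onecut1 at -0.88 (SE 0.38, adjusted p = 0.14).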

How the data were processed

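Per the labels' protocols, poly(A) RNA of mouse liver was made into libraries with a SMARTER mRNA-Seq kit and sequenced. The submitters' processing notes name cutadapt, FastQC, HISAT2, StringTie, edgeR and the mm10 build. The deposited gene table holds estimated counts, whole numbers that equal the sums of the transcript counts for 100% of the 55401 gene rows; how the authors made them is not given in the sources used here. The authors' deposited FPKM tables hold values for genes and for 142604 transcripts. For 98.43% to 99.39% of transcripts in a library the count equalled FPKM times length times a constant, within 1 count.

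Estimated counts were tested with edgeR 4.0.16 in R 4.3.3 (filterByExpr, TMM, quasi-likelihood), in 1 fit of all 12 libraries. Contrasts were MCD over control within each genotype and averaged, cre over flox on each diet, and the interaction. Every adjusted p is Benjamini-Hochberg over all features of the table. FPKM were tested with limma 3.58.1 on log2(FPKM + 1), in genes with at least 0.5 FPKM in 3 libraries; such a fold change understates that of low genes. Alternatives were DESeq2 1.42.0, its size factors, no filter, a pseudocount of 0.1, a replicate block, only the libraries compared, the rRNA row and mitochondrial genes left out, and libraries left out. CPM and ratios were computed from these tables, and ratios were compared by exact permutation tests. The scripts were tested on simulated counts.

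Depth was 40883986 to 65516723 estimated counts a library. The genes, lists and markers were chosen with earlier results of these data known. From each list the text names up to 3 genes that passed, by smallest adjusted p, or up to 2 where none did; some genes this rule names are not reported here. Of the transcripts it draws on those with a mean of at least 1 FPKM, and the forms from the other starts of Hnf4a and Pparg were added for comparison. A gene's likeness is Pearson's r over 12 libraries, with the top 3 kept.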

Additional observations from a re-analysis of the deposited data

How the results depend on the processing

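The rise of Pparg and the fall of Hnf4aos, averaged over genotypes and in flox mice, and the fall of Hnf4aos in cre mice passed in all alternatives run. The fall of Nr1i3 in cre mice also passed in all of them. Of the values of the 10 genes under all alternatives, 1231 kept their direction and side of the threshold, 52 no longer passed and 77 turned; without the FPKM settings these were 1067, 24 and 29. The cause of these changes was not tested.

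The count of the 10 genes called in flox mice was 2 with only the 6 libraries compared, 2 on log2(FPKM + 1), 2 on log2(FPKM + 0.1), 2 without its filter and 2 after centring, a setting chosen after seeing the data. Without 1 library it was 2 to 4 in flox mice and 2 to 5 in cre mice. In cre mice it was 3, and averaged it was 2, on each of the 3 unscaled FPKM settings. Within 1 genotype the Hnf4aos to Hnf4a ratio differed by -3.96 (flox) and -2.16 (cre) and the Pparg to Ppara ratio by 1.92 and 1.38, where 3 against 3 allow no exact permutation p below 0.1. Transcripts called were 0 in flox mice and 0 in cre mice with no filter, with only the 6 libraries and without cre MCD 3 and flox control 3, and 2 averaged with no filter. With DESeq2 they were 5, 7 and 8. Without 1 library they were 0 to 1, 0 to 1 and 2 to 4.

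On the 3 unscaled FPKM settings (log2(FPKM + 1), + 0.1, no filter) the direction turned in flox mice for Ppara (0.21, 0.24, 0.21), Nr1h3 (0.52, 0.53, 0.52), Nr1h4 (0.32, 0.33, 0.32), Nr1i3 (0.07, 0.07, 0.07), Nr5a2 (0.21, 0.24, 0.21) and Rxra (0.21, 0.22, 0.21). In cre mice it turned for Nr5a2 (0.09, 0.10, 0.09). Averaged it turned for Ppara (0.10, 0.12, 0.10), Nr5a2 (0.15, 0.17, 0.15), Rxra (0.28, 0.30, 0.28), Sirt1 (0.01) and Nr3c1 (0.03). Between genotypes on MCD it turned for Rxra (-0.15) and Hnf4a (-0.07), and for the difference of diet effects for Nr1h3 (-0.07), Nr1i2 (-0.15) and Nr5a2 (-0.12, -0.14, -0.12). Centring turned Nr1h3 in flox mice (0.14), Rxra on MCD (-0.03) and the Nr1i2 difference (-0.00), and no filter turned Rxra on MCD (-0.00). Without cre MCD 3 and flox control 3, Nr1h3 in flox mice stood at 0.16, Rxra in cre mice at -0.11, on MCD Nr1i2 at 0.00 and Rxra at -0.14, and the differences of Nr1h3 at -0.08 and Nr5a2 at -0.15.

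With 1 library left out, values that turned ranged for Nr1h3 from -0.19 to 0.16 (flox), -0.04 to 0.13 (averaged) and -0.05 to 0.30 (difference), and for Rxra from -0.11 to 0.14 (cre) and -0.14 to 0.11 (on MCD). For Nr1i2 they ranged from -0.05 to 0.03 (on MCD), -0.16 to 0.01 (on control) and -0.02 to 0.14 (difference), and for Nr5a2 from -0.22 to 0.02 (on MCD) and -0.09 to 0.15 (difference). For Hnf4a they ranged from -0.00 to 0.17 on MCD and for Ppara from -0.38 to 0.07 (difference).

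Replicate numbers recur across groups, and the labels do not say that they pair libraries, so the main fit left them out. Deviations from the group means correlated at r = -0.0428 to 0.517 between libraries sharing a number, with 8 of 18 pairs over 0.1. Between libraries with different numbers r was -0.541 to 0.196, and 8 of the 12 libraries correlated best with their own number. Whether the numbers mark a shared batch was not tested. With the replicate block the counts of the 10 genes were 4, 5, 6, 0, 0 and 0 again, Rxra on MCD was -0.00, and all genes called were 1046, 2005 and 3155 (flox, cre, averaged) against 871, 1118 and 2470. DESeq2 called 1668, 2255 and 3451, and 170, 50 and 104 in the genotype comparisons and the difference, against 2, 7 and 1. Among called genes averaged, 53.7% were higher in edgeR and 91.3% on log2(FPKM + 1). Depth limits Hnf4aos on MCD.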
